A study of Mus musculus with 45 samples.

Results

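The Eph receptors and ephrins that pattern the intestinal crypt were followed here as a group of 10 genes chosen by name: the receptors Ephb2, Ephb3, Ephb4, Ephb6, Epha1 and Epha2 and the ligands Efnb1, Efnb2, Efna1 and Efna4. All 10 were present among the 52636 genes of each of the 2 deposited expression tables of the series, one for sorted cells and one for organoids. The sorted cells were GFP+ve Lgr5 intestinal stem cells (ISCs) or their fetal precursors from Lgr5-DTReGFP mice, in which a DTR-eGFP cassette is knocked into Lgr5 and disrupts it, so that HEs keep 1 working copy and KOs none. They comprised E16.5 pools of small intestine (2 of HE embryos and 2 of KO embryos), E18.5 HE embryos (n = 2) and duodenum and ileum of 2 adult HE mice aged 2 months. Adult ileal cells from Lgr5-GFP-CreERT2, Rosa26R-Tomato mice were sorted as eGFP+ve/RFP+ve 48 h after 2 mg of tamoxifen, from mice aged 2 months and labelled Cre/+ (HE, n = 2) or Cre/flox (conditional knockout, cKO, n = 3), the floxed allele carrying loxP sites around Lgr5 exon 16. Organoids were grown from the small intestine of E17.5 Lgr5-DTReGFP embryos, 3 wild-type (WT5, WT10 and WT30) and 2 KO (KO2 and KO7) cultures at passage 4, each exposed to mouse Rspo1, Rspo2 or Rspo3 at 100 or 5 ng/ml with EGF and noggin, which gave 30 libraries. Values are CPM. Depth was 1275948 to 9984665 reads on genes in the 15 sorted libraries (median 4368773), where 1 read equals 0.784 CPM in the shallowest library, and 18126779 to 33112583 in the organoids.

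Eph receptors are receptor tyrosine kinases of the cell surface, and ephrins are their membrane-bound ligands on neighbouring cells, so that contact signals in both cells at once. Receptors of the B class bind mainly B-type ephrins, which span the membrane, and receptors of the A class bind A-type ephrins, which are held by a GPI anchor. In the intestine Ephb2 and Ephb3 are known targets of Wnt/β-catenin signalling that mark the crypt base, whereas ephrin-B ligands are found towards the villus, and repulsion between both keeps proliferating, Paneth and differentiated cells in their places. Ephb6 lacks kinase activity, Ephb4 is the receptor of ephrin-B2 best known from veins, and Epha2 is an epithelial receptor for which ephrin-A1 is a main ligand.

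On GRCm38, the receptor genes lie on 4 chromosomes. Ephb2 (ENSMUSG00000028664) is at chr4:136647539-136835988 and Epha2 (ENSMUSG00000006445) at chr4:141301240-141329384, Ephb3 (ENSMUSG00000005958) at chr16:21204755-21223305, and Ephb4 (ENSMUSG00000029710) at chr5:137350109-137378669. Ephb6 (ENSMUSG00000029869) at chr6:41605482-41620509 and Epha1 (ENSMUSG00000029859) at chr6:42358487-42373268 are neighbours in the same region of chromosome 6. Among the ligands, Efna1 (ENSMUSG00000027954, chr3:89271733-89281142) and Efna4 (ENSMUSG00000028040, chr3:89333390-89338028) also lie close together, Efnb2 (ENSMUSG00000001300) is at chr8:8617434-8661242, and Efnb1 (ENSMUSG00000031217) is X-linked at chrX:99136130-99148991. Exons of 3 members overlap a gene on the opposite strand, by 33 bases for Ephb4 (with Zan), 236 bases or 6.01% of exon length for Epha1 (with Zyx) and 168 bases or 10.5% for Efna4 (with 4731419I09Rik). Reads in these stretches could not be assigned with certainty because strand use in counting is not given in the sources used here.

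Ephb2, Ephb3, Epha2 and Efnb2 were among the members that changed between Rspo1 doses in WT organoids. The sequences before their RefSeq starts are shown 5′ to 3′ (GRCm38.p6; minus strand for Ephb2 and Efnb2, plus strand for Ephb3 and Epha2). None passes the first base of the gene as placed above, and those of Ephb2 and Epha2 end short of it. For Ephb3, 40 bases were left off because they lie within an annotated first exon. RefSeq windows were matched for all 10 members. They were searched on both strands, over 250 bases before the RefSeq start, for the TCF/LEF core letters CTTTGAA and CTTTGAT, which are marked in capitals.
Ephb2 (chr4:136836013-136836262): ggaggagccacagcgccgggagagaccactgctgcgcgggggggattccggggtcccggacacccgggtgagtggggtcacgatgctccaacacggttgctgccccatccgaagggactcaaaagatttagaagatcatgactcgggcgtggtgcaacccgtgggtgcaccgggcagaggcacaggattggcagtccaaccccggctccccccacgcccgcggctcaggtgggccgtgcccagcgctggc
Ephb3 (chr16:21204545-21204754): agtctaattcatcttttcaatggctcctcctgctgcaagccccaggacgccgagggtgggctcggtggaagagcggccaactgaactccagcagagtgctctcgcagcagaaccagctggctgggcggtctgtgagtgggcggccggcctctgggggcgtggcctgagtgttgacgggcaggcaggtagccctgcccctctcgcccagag
Epha2 (chr4:141300971-141301220): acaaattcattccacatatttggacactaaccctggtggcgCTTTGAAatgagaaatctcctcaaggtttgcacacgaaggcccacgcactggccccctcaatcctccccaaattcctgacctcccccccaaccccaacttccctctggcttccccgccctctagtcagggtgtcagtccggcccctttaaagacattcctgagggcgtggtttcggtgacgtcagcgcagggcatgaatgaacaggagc
Efnb2 (chr8:8661243-8661492): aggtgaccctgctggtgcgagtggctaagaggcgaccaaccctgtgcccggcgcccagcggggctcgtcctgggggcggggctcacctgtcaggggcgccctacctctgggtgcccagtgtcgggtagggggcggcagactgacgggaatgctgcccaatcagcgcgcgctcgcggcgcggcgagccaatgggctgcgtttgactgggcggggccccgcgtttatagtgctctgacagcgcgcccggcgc
Among the 10 members only Epha2 held these letters, as CTTTGAA from 209 to 203 bases before its RefSeq start. Of 32817 windows of this length in the genome, 7.48% held either motif. The match is a description of the letters, and its absence from the Ephb2, Ephb3 and Efnb2 windows says nothing of more distant sequence. The windows were rich in G and C, with 68.4% in Ephb2, 65.6% in Ephb3, 72% in Efnb2 and 55.6% in Epha2 against a median of 52.4%.

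Lgr5 itself was first compared with the labels. At E16.5, Lgr5 RNA was at 104 and 125 CPM in HE pools and 64.8 and 51.6 CPM in KO pools, so reads from the disrupted locus were still found. In the adult Cre libraries, Lgr5 was at 52.8 and 87.5 CPM in those labelled HE and at 89.2, 109 and 90.7 CPM in those labelled cKO. It was not lower in the libraries labelled cKO, and whole-gene values cannot tell whether exon 16 was removed. In addition, the study's supplement gives the library labelled HE 1 as cKO and the library labelled cKO 2 as HE, so genotypes of these 5 libraries are reported as labelled. The 7 epithelial markers summed to 2783 to 3065 CPM in E16.5 HE pools and 4212 to 4295 CPM in E18.5 HE embryos. Xist and Ddx3y showed that all WT cultures were female and both KO cultures male, so that genotype and sex cannot be told apart in organoids, although Xist reached 213 CPM in 1 KO2 library. The libraries labelled cKO were female and those labelled HE male, and at E16.5 KO pool 1 was male with the other pools mixed. E18.5 embryo 1 was male and embryo 2 female, and adult mice 71 and 77 were male.

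**Figure D1:**
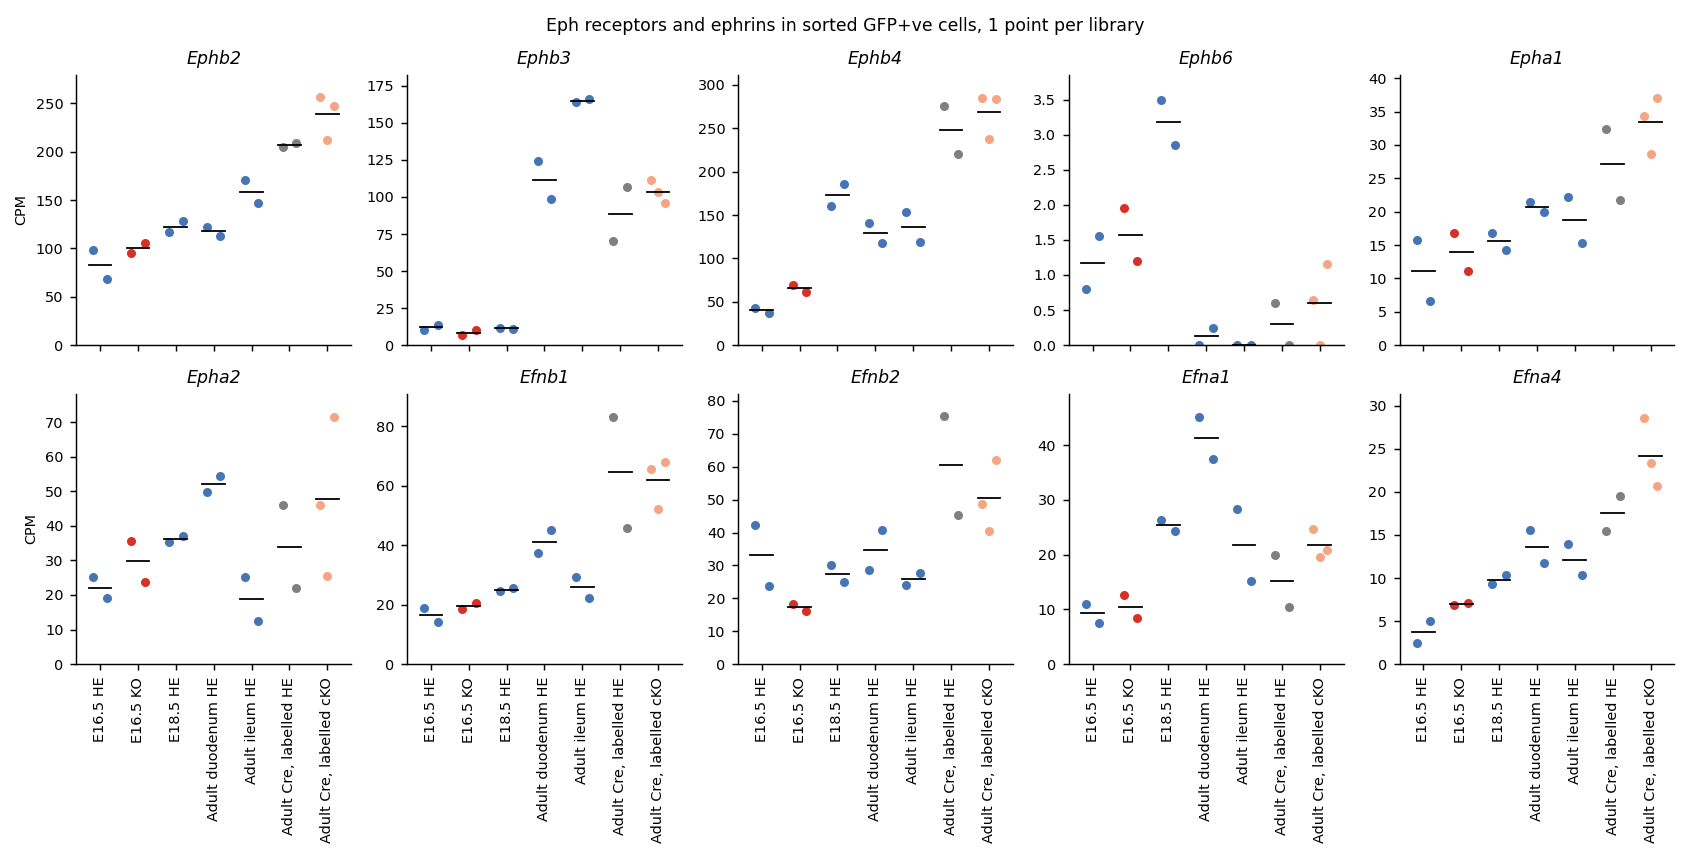
CPM (y axis, from 0) of the 10 genes in every library of sorted GFP+ve cells, by group on the x axis; each point is a library and each black line the group mean. Ephb3 stays between 6.55 and 13.7 CPM in fetal libraries and lies between 70.0 and 166 CPM in adult ones, and Ephb4 rises between E16.5 and E18.5.

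Among the 10 genes, Ephb4 was the most abundant per exon length in every sorted group, and Ephb6 the least. This order depends on the exon length used. By mean CPM, Ephb2 was above Ephb4 in both E16.5 groups and in adult ileum, and below it in the other sorted groups. Per kb of exon (union of all annotated exons), Ephb4 was at 8.62 ± 0.960 CPM (SD, n = 2) in E16.5 HEs, 37.2 ± 3.85 (SD, n = 2) at E18.5 and 29.4 ± 5.29 (SD, n = 2) in adult ileum. Ephb3 held place 9 in all 3 fetal groups, with 1.80 ± 0.367 CPM per kb (SD, n = 2) in E16.5 HEs and 1.70 ± 0.0586 (SD, n = 2) at E18.5. It reached place 3 in adult duodenum (16.8 ± 2.77, SD, n = 2) and place 2 in adult ileum (24.8 ± 0.218, SD, n = 2), where its 2 libraries did not overlap those of Ephb4 or of Ephb2 (12.6 ± 1.32, SD, n = 2). Efna1 was the highest ligand per kb at E18.5 (13.8 ± 0.753, SD, n = 2) and in adult duodenum (22.6 ± 2.96, SD, n = 2). In E16.5 HEs, Ephb2, Efna1, Efnb2, Efnb1 and Epha2 followed Ephb4 with each neighbour in that order overlapping the next.

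Loss of Lgr5 at E16.5 left the group without a change that passed the test, and genotypes did not overlap in 3 of 10 members. Ephb4 was at 43.1 and 36.9 CPM in HE pools and 69.7 and 61.5 CPM in KO pools. Efnb2 was at 42.4 and 23.8 CPM in HEs and 18.4 and 16.3 CPM in KOs, and Efna4 at 2.4 and 5.05 and 6.9 and 7.15 CPM. In these 3 genes the genotypes did not overlap, as in 46% of all genes tested, with both KO pools above both HE pools for Ephb4 and Efna4 and below them for Efnb2. In limma fits, called at an adjusted p below 0.1 and a change above 1.5-fold, 0 of 10 members passed, against 0.527% of 17276 genes. edgeR on recovered reads also called 0, and 2 members had an unadjusted p below 0.05 by each tool, Ephb4 and Efnb2 by limma, as did 2354 genes by limma. The log2 fold change, on log2(CPM + 1) throughout, was 0.70 for Ephb4 (95% interval 0.29 to 1.11; limma adjusted p = 0.158) and −0.84 for Efnb2 (−1.49 to −0.19; limma adjusted p = 0.264). With the litter as a block, 2 members passed, Ephb4 with limma adjusted p = 0.023 and Efnb2 with 0.0608, against 830 of 17276 genes. Ephb2 was at 98 and 68.1 CPM in HEs and 95.8 and 106 CPM in KOs and Ephb3 at 10.2 and 13.7 and 6.55 and 10.3 CPM, each with overlapping genotypes. The intervals of their log2 fold changes, −0.13 to 0.72 for Ephb2 and −1.28 to 0.34 for Ephb3, still include changes of more than 1.5-fold.

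These pools were sorted for GFP with doublets excluded, and RNA of markers of other cell types was still found in them and differed between pools. The 8 endothelial markers summed to 73.9 and 30.5 CPM in HE pools and to 8.55 and 33.5 CPM in KO pools, with Pecam1 the most abundant in both HE pools and KO1 and Kdr in KO2, Cldn5 at 0 in both KO pools and Plvap at 0 in KO1. The 8 mesenchymal markers summed to 1700 and 733 CPM in HEs and 167 and 455 CPM in KOs, led by Col3a1, and 7 tested mesenchymal genes had a median log2 fold change of −2.02, 1 of them passing the test. The 7 immune markers were at 115 and 56.2 CPM in HEs and 8.15 and 24.3 CPM in KOs, and enterocyte markers, led by Fabp2, at 2032 and 1530 against 749 and 581 CPM, 5 of 7 passing as lower. Smooth muscle markers were at 326 and 358 CPM in HEs and 61.75 and 180 CPM in KOs. Other sums were higher in both KO pools. Stem markers were at 1486 and 1465 CPM in HEs and 1988 and 1776 CPM in KOs, and epithelial markers at 3453 and 3253 CPM in KOs. Paneth markers were at 92.6 and 84.45 against 267 and 142 CPM, and goblet markers at 410 and 393 against 834 and 521 CPM. The part of all these cells in the values of the members was not tested. In bulk samples of this kind, fewer cells of a type and less RNA per cell cannot be told apart. Where 0.527% of all genes passed, of 12 other Eph family genes 7 were tested and 0 passed, and of 24 genes that act downstream of Eph receptors or ephrins 0 passed, both by limma. Of 12 tested Wnt target genes, Axin2 was higher in KOs (log2 fold change 0.92) and Lgr5 lower (−0.97).

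Between E16.5 and E18.5, several members were higher in CPM in sorted cells of HEs, with Ephb4 rising most. The share of members that passed was near the share of all genes that passed in either direction. Ephb4 went from 43.1 and 36.9 CPM in the E16.5 pools to 160.1 and 185 CPM in the E18.5 embryos. Efna1, the ligand of Epha2, rose from 11 and 7.6 to 26.3 and 24.4 CPM and Epha2 itself from 25.1 and 19.2 to 35.3 and 37.0 CPM. Every E18.5 value of these 3 genes was above both E16.5 values. The same holds in either direction for 76.3% of all genes tested. By limma, 5 of the 9 members that met the minimum of 1 CPM in both groups passed, all higher at E18.5, where 49.6% of 18408 genes passed in either direction. The log2 fold change was 2.08 for Ephb4 (1.75 to 2.42; limma adjusted p = 0.000301), from 40 ± 4.46 to 173 ± 17.9 CPM (SD, n = 2 and 2). It was 1.37 for Efna1 (limma adjusted p = 0.00645) and 0.69 for Epha2 (limma adjusted p = 0.0257). Epha2 did not pass in 1 fit of all 15 sorted libraries (0.69, limma adjusted p = 0.194), nor without E16.5 HE pool 2, where it was under the required fold (0.51). Efna4 rose from 2.4 and 5.05 to 9.25 and 10.3 CPM (1.25; limma adjusted p = 0.036). Efnb1 was at 18.9 and 14.2 CPM at E16.5 and 24.4 and 25.6 CPM at E18.5, just past the required fold (0.59; limma adjusted p = 0.0642), and it was below it with TMM scaling (0.53) or without E16.5 HE pool 2 (0.39), and did not pass with no filter on low values (limma adjusted p = 0.107). Ephb6 counted 1 and 3 reads at E16.5 and 15 and 13 reads at E18.5, or 0.8 and 1.55 against 3.5 and 2.85 CPM, and met the minimum only through E18.5, so its call (6 of 10 with it) is not counted.

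The crypt receptors Ephb2 and Ephb3 did not behave alike over this interval. Ephb2 was at 98 and 68.1 CPM at E16.5 and 116 and 129 CPM at E18.5, a 1.49-fold difference that lay under the required fold (limma adjusted p = 0.0413). Ephb3 was at 10.2 and 13.7 CPM and 11.6 and 11 CPM, with overlapping stages and an interval of −0.70 to 0.57 for the log2 fold change. edgeR called 6 members, Ephb2 (log2 fold change 0.59, edgeR adjusted p = 0.00489) being added and Ephb6 not called (edgeR adjusted p = 0.131). With either E18.5 embryo left out, 0 members and 0% of all genes passed, Ephb4 being then at 2.19 and 1.98 (limma adjusted p = 0.120 in both cases). Without E16.5 HE pool 1, Ephb2 (0.84) and Epha1 (1.12) passed, and without pool 2 Efnb2 (−0.61) did. Pools at E16.5 and individual embryos at E18.5 cannot be told apart from stage. Where 49.6% of all genes passed, 3 of 5 other Eph family genes tested fell, Efna5 by 2.53, Ephb1 by 1.64 and Epha7 by 0.80 on the log2 scale. Among 23 downstream genes, 4 rose, with Rgs3 (1.88), Src (1.49) and Abl1 (1.21) the largest, and 4 fell, with Kalrn (−2.73), Arap3 (−2.37) and Grip1 (−1.40) the largest. All 7 tested mesenchymal markers fell, to sums of 64.8 and 75.3 CPM, as did 6 of 7 endothelial markers, to 4.5 and 8.3 CPM, and their part in the values of the members was not tested. Stem cell markers rose in 6 of 7 genes, from sums of 1486 and 1465 CPM to 5008 and 4613 CPM, led by Slc12a2, and their part was not tested. Of 12 tested Wnt targets, 6 rose and 2 fell.

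Between E18.5 precursors and adult ISCs, the largest change among the 9 members that met the minimum in both groups was that of Ephb3. This receptor is known to hold Paneth cells at the crypt base. Ephb3 was at 11.6 and 11 CPM in the E18.5 embryos, 124 and 98.3 CPM in adult duodenum and 164 and 166 CPM in adult ileum of mice 71 and 77. These 4 adult libraries were all far above both fetal ones, and 43.3% of all genes likewise did not overlap. Ephb6 was listed at 0 and 0.25 CPM in duodenum and at 0 in both ileal libraries, below 3.5 and 2.85 CPM at E18.5. By limma, 1 of the 9 members that met the minimum of 1 CPM in both groups passed, Ephb3, against 19% of 19554 genes tested, and edgeR called 1 as well. Ephb6 met the minimum only through the E18.5 embryos, so its lower call (2 of 10 with it) is not counted here. The log2 fold change of Ephb3 was 3.47 (95% interval 2.96 to 3.99; limma adjusted p = 0.000127), from 11.3 ± 0.389 CPM (SD, n = 2) to 138 ± 32.7 CPM (SD, n = 4). The 4 adult libraries came from 2 mice, so they are not 4 independent animals.

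In the Lgr5-DTReGFP mice, Ephb2 did not follow Ephb3 into adulthood. It was at 116 and 129 CPM at E18.5 and 122 and 113 CPM in duodenum and 171 and 147 CPM in ileum, a log2 fold change of 0.16 with an interval of −0.25 to 0.56. Ephb4 was at 160.1 and 185 CPM at E18.5 and at 141 and 117 and 154 and 119 CPM in both adult regions, lower in each of these 4 adult libraries but short of the test (−0.38; limma adjusted p = 0.121). The adult Cre ileal libraries, which are not in this test, lay above both E18.5 embryos for both genes. They held Ephb2 at 205 to 257 CPM and Ephb4 at 220 to 285 CPM. Strain, tamoxifen and sorting differ there, so stage alone cannot be read from them. With adult duodenum alone (28% of all genes called), Efnb1 (37.3 and 45.1 CPM against 24.4 and 25.6 CPM at E18.5; 0.69, limma adjusted p = 0.00920) and Efna1 (45.1 and 37.5 against 26.3 and 24.4 CPM; 0.68, limma adjusted p = 0.0100) passed besides Ephb3. With adult ileum alone (23.4% of all genes), Epha2 (25.1 and 12.6 CPM against 35.3 and 37.0 CPM at E18.5; −0.98, limma adjusted p = 0.0516) passed as lower. Beside the 19% of all genes called with both regions, of 5 other Eph family genes tested, Epha4 rose (1.70) and Epha7 fell by 2.17 on the log2 scale. Among 22 downstream genes Kalrn (4.37) and Tiam1 (0.97) rose and Vav3 (−2.62) and Fyn (−2.15) fell. Paneth cell markers rose in 8 of 8 genes (median log2 fold change 6.40), from sums of 153 and 147 CPM to 17033 and 19080 CPM in duodenum and 11488 and 32445 CPM in ileum, with Defa24 the most abundant at E18.5 and Lyz1 in the adult. Ephb3 is known from Paneth cells as well as ISCs, and the part of Paneth RNA in the rise of Ephb3 was not tested. Of 5 tested immune markers 3 rose, with sums of 13.1 and 9.55 CPM at E18.5 and of 2243 to 2521 CPM in duodenum and 2820 to 4159 CPM in ileum, led by Lyz2. In mice 71 and 77, Lyz2 alone was at 2195 and 2005 CPM in duodenum and 1474 and 3112 CPM in ileum. Cybb was at 0 in the ileum of mouse 71, Tyrobp in that of mouse 77, and both Cd3e and Tyrobp in E18.5 embryo 2. Of 6 goblet markers 3 rose, from sums of 518 and 372 CPM, led by Fcgbp, to 1692 and 1547 CPM in duodenum and 2220 and 8258 CPM in ileum, led by Muc2. Of 7 enterocyte markers 4 fell and 1 rose, from sums of 1423 and 1159 CPM, led by Apoa4, to 461 and 653 CPM in duodenum and 118 and 119 CPM in ileum. Stem markers went from sums of 5008 and 4613 CPM, led by Slc12a2, to 9093 and 7401 CPM in duodenum. In ileum they were at 7440 and 6103 CPM, and Olfm4 led in both adult regions. The part of these cell types was not tested. Of 14 tested Wnt targets, 8 rose.

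In the adult, Epha2 was the member called between gut regions, a call that several settings did not keep. Epha2 was at 49.8 and 54.4 CPM in duodenum and 25.1 and 12.6 CPM in ileum, and both ileal values were below both duodenal ones. It was the only member of 9 tested that passed by limma, against 6.88% of 18608 genes, and edgeR called the same number. Its log2 fold change was −1.49 (95% interval −2.21 to −0.78; limma adjusted p = 0.0423), from 52.1 ± 3.22 to 18.9 ± 8.84 CPM (SD, n = 2 and 2). It did not pass without the duodenum of mouse 71 (−1.55, limma adjusted p = 0.421) or of mouse 77 (−1.43, 0.614), without the ileum of mouse 77 (−1.02, 0.168) or with no filter on low values (−1.49, 0.230). Its ligand Efna1 was at 45.1 and 37.5 CPM in duodenum and 28.2 and 15.2 CPM in ileum, and Efnb1 at 37.3 and 45.1 and 29.4 and 22.2 CPM. Neither overlapped between regions, nor did 45.8% of all genes. With the mouse as a block both passed (limma adjusted p = 0.0169 and 0.0748, against 0.152 and 0.171 without it), which made 3 members, against 11.1% of all genes.

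Ephb3 and Ephb2 went the other way between regions, without passing the test. Both ileal values of Ephb3 exceeded both duodenal ones, 165 ± 1.45 against 111 ± 18.4 CPM (SD, n = 2 and 2; log2 fold change 0.57, limma adjusted p = 0.135). The same was seen for Ephb2, 159 ± 16.6 against 118 ± 6.72 CPM (SD, n = 2 and 2; 0.43, limma adjusted p = 0.233). Enterocyte markers moved with region, 7 of 7 passing as lower in ileum, with sums of 461 and 653 CPM in duodenum and 118 and 119 CPM in ileum and with Fabp1 the most abundant gene in duodenum and Fabp2 in ileum. Epithelial markers, 2 of 7 lower in ileum, summed to 5838 and 7186 CPM in duodenum, led by Krt18, and 4561 and 3890 CPM in ileum, led by Krt8. Goblet markers, led by Muc2 and with 1 of 6 higher in ileum, summed to 1692 and 1547 CPM in duodenum and 2220 and 8258 CPM in ileum. The ileum of mouse 77, where Epha2 was lowest, thus had the highest goblet sum, and also the highest Paneth sum (32445 CPM, 0 of 8 Paneth markers passing between regions). The part of these cells in the lower Epha2 was not tested. Against 6.88% of all genes, among 22 downstream genes Grip1 was higher (1.71) and Kalrn lower (−1.49) in ileum, while 0 of 5 other family genes and 0 of 14 Wnt targets passed by limma.

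In adult Cre libraries 48 h after tamoxifen, no member passed the test between the labelled genotypes. Ephb2 was at 205 and 209 CPM in the libraries labelled HE and 257, 212 and 247 CPM in those labelled cKO. Ephb3 was at 70.0 and 107 and 111, 103 and 95.8 CPM, and Efna4 at 15.5 and 19.5 and 28.6, 23.3 and 20.6 CPM. All 3 libraries labelled cKO were above both labelled HE for Ephb2 and Efna4, and the labels overlapped for Ephb3. Groups without overlap were found in 19.3% of all genes tested. By limma 0 of 9 tested members passed, against 0.0504% of all genes (10 genes), and edgeR called 0. At an unadjusted p below 0.05, limma gave 0 members and 902 genes. The log2 fold change was 0.20 for Ephb2 (95% interval −0.10 to 0.50; limma adjusted p = 0.864) and 0.44 for Efna4 (−0.05 to 0.93; limma adjusted p = 0.864). TMM scaling moved the median of all genes by −0.13, after which Ephb2 was at 0.06 and Ephb4 at −0.02. With the genotypes of the supplement, Epha2 passed (log2 fold change 1.14, limma adjusted p = 0.0437), against 3.92% of all genes. Those genotypes set libraries labelled HE 1, cKO 1 and cKO 3 (9055334, 8122500 and 9984665 reads) against HE 2 and cKO 2 (3084694 and 5717569 reads). In that order, enterocyte markers summed to 547, 261 and 256 against 138 and 151 CPM. Paneth markers summed to 4134, 2764 and 2914 against 7271 and 5470 CPM. The part of depth and of these cells in the Epha2 call was not tested. Epha2 was at 46.0 and 22.1 CPM in libraries labelled HE 1 and HE 2 and 46.0, 25.4 and 71.5 CPM in those labelled cKO 1 to cKO 3. As labelled, its groups overlapped.

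In WT organoids, most tested receptors were higher at 100 ng/ml of Rspondin and most ligands higher at 5 ng/ml, with Epha1 and Efna4 as the exceptions and Ephb3 with the largest fold changes. Ephb3 was at 11.6, 14.8 and 14.4 CPM in WT5, WT10 and WT30 at 5 ng/ml of Rspo1 and at 112, 92.2 and 87.4 CPM at 100 ng/ml. With Rspo2 it went from 32.8, 23 and 16.1 to 127, 174 and 208 CPM, and with Rspo3 from 5.95, 7.65 and 6.95 to 50.5, 44.4 and 40.6 CPM in the same cultures. Every culture was higher at 100 ng/ml with every ligand, and doses did not overlap. Ephb2 was at 98.0, 73.2 and 83.2 CPM at 5 ng/ml of Rspo1 and 234, 168 and 181 CPM at 100 ng/ml, at 134, 115 and 66 and 233, 234 and 246 CPM with Rspo2, and at 56.6, 42.2 and 37.1 and 166, 158 and 112 CPM with Rspo3. Efnb2 ran the opposite way, at 537, 386 and 514 CPM at the low dose of Rspo1 and 218, 177 and 166 CPM at the high dose. With Rspo2 Efnb2 was at 366, 369.9 and 397 and 220.5, 144 and 113 CPM, and with Rspo3 at 559, 481 and 476 and 328, 303 and 297 CPM. For both genes, too, the low and high dose did not overlap within any ligand. Among all genes 54.4%, 47.4% and 63.4% did not overlap between doses of Rspo1, Rspo2 and Rspo3.

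**Figure D2:**
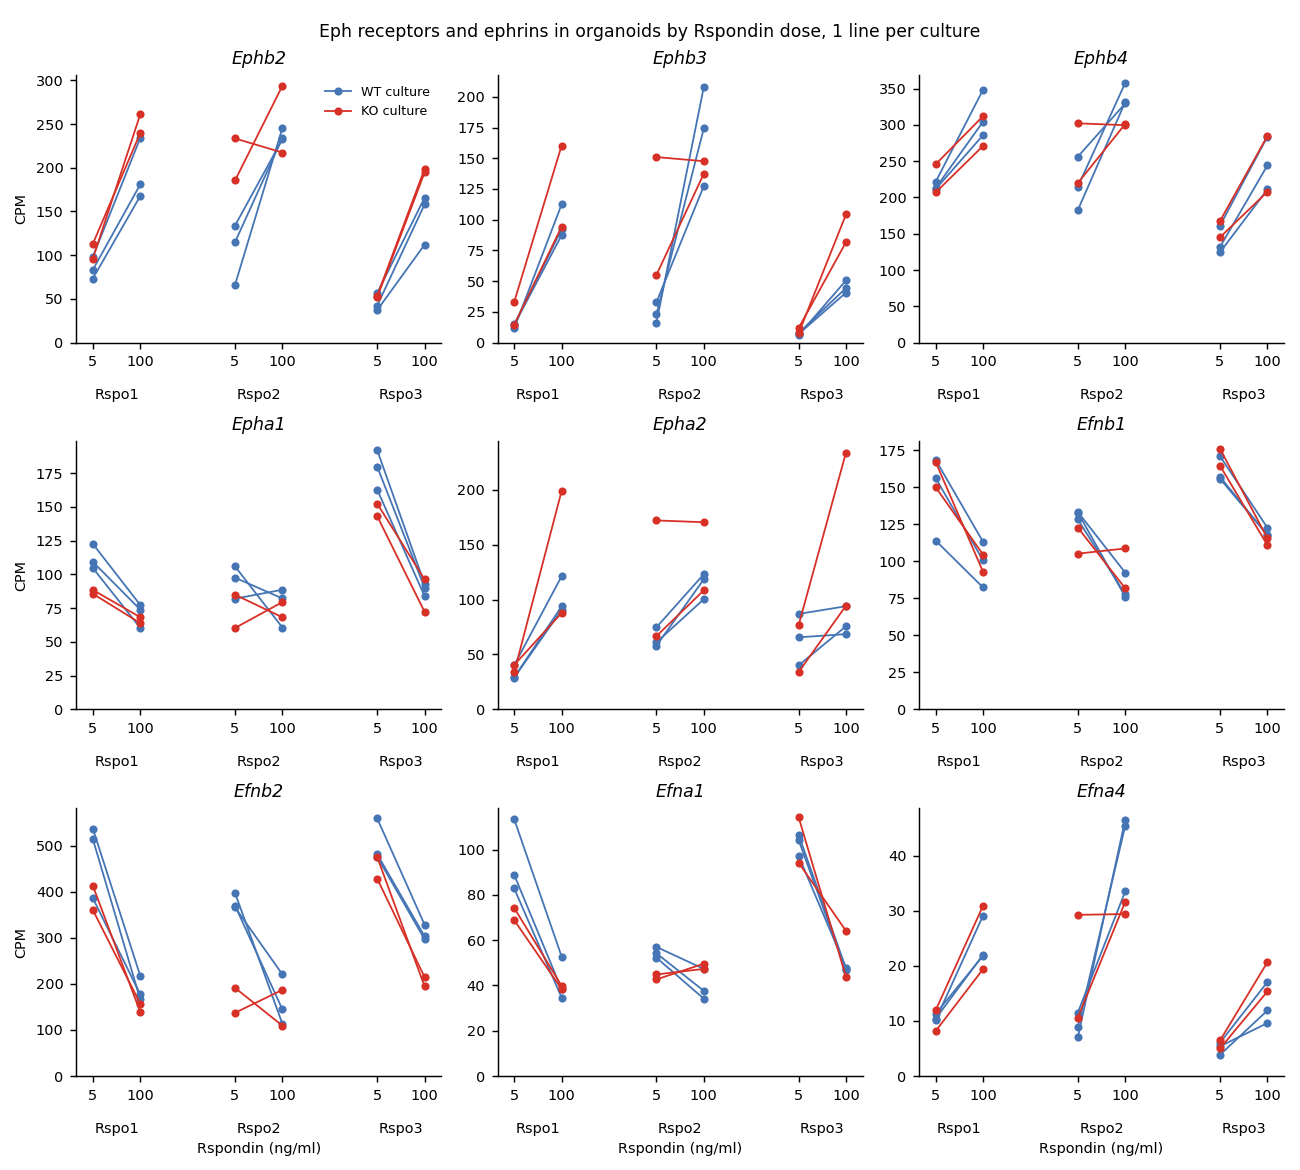
CPM (y axis, from 0) of 9 members in organoids at 5 and 100 ng/ml of Rspo1, Rspo2 or Rspo3 (x axis); each line joins both doses of a culture, WT in blue and KO in red. Ephb2, Ephb3, Ephb4, Epha2 and Efna4 lines mostly climb and Epha1, Efnb1, Efnb2 and Efna1 lines mostly descend, while the KO2 lines of Ephb2, Ephb3, Ephb4 and Efna4 are nearly flat with Rspo2.

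Called at an adjusted p below 0.05 in a limma fit of all 30 libraries, 9 of 9 tested members passed with Rspo1 (5 higher and 4 lower at 100 ng/ml; 53.4% of all genes passed), 7 with Rspo2 (4 higher, 3 lower; 33.4%) and 8 with Rspo3 (4 higher, 4 lower; 51.4%). The log2 fold change of Ephb3 was 2.75, 2.80 and 2.56 with Rspo1, Rspo2 and Rspo3 (limma adjusted p = 6.18e-07, 2.2e-06 and 6.75e-07). That of Ephb2 was 1.18, 1.23 and 1.66 (limma adjusted p = 7.04e-05, 0.000175 and 7.85e-07), and that of Efnb2 −1.35, −1.29 and −0.70 (limma adjusted p = 9.75e-06, 6.81e-05 and 0.00501). Efna4 behaved as the receptors did, from 9.12 ± 2.26 to 41.8 ± 7.21 CPM with Rspo2 (SD, n = 3 and 3; 2.09, limma adjusted p = 1.28e-05), and by 1.11 and 1.17 with Rspo1 and Rspo3. Epha1 behaved as the ligands did and fell by 0.67 with Rspo1 and by 0.99 with Rspo3 on the log2 scale, and it was at −0.31 with Rspo2 without passing (limma adjusted p = 0.102). Over all 3 ligands Efnb1 lay at 114 to 171 CPM (median 156, n = 9) at 5 ng/ml and 76.1 to 123 CPM (median 101, n = 9) at 100 ng/ml, and Efna1 at 52.2 to 113 CPM (median 88.8, n = 9) and 34.1 to 52.8 CPM (median 46.6, n = 9). Taking each culture and ligand as a pair, the 9 WT pairs of Ephb2, Ephb3, Ephb4, Epha2 and Efna4 were all higher at 100 ng/ml, and those of Efnb1, Efnb2 and Efna1 all lower, while Epha1 was lower in 8 of 9. The 9 pairs, like the 9 libraries at each dose, come from 3 cultures and are not independent replicates. The share of all genes with every pair in the same direction was not counted. Ephb6 lay between 0 and 0.5 CPM in the 30 organoid libraries and was not tested.

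Epha2 responded to Rspo1 more widely than to Rspo3 in WT cultures, although the difference between ligands in dose effect was not tested. It was at 29.2, 40.2 and 28.9 CPM at 5 ng/ml of Rspo1 and 93.8, 121 and 90.7 CPM at 100 ng/ml. With Rspo2 the values were 57.9, 74.8 and 61 and 119, 123 and 100.4 CPM, and with Rspo3 40, 87.0 and 65.6 and 75.7, 94.0 and 68.5 CPM, where doses overlapped. The log2 fold changes were 1.61, 0.81 and 0.36 (limma adjusted p = 0.000979, 0.0927 and 0.435), and with the culture as a block Epha2 also passed with Rspo2 (limma adjusted p = 0.00413; 47.5% of all genes).

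CPM shares shifted between doses across the whole transcriptome, so the split of higher and lower genes depends on scaling. TMM moved the median of all genes by −0.27 with Rspo1, −0.20 with Rspo2 and −0.19 with Rspo3 in WT, and the share of called genes that were higher at 100 ng/ml went from 76.6% to 48.7%, from 72.7% to 42.3% and from 73.4% to 54.1%. Relative to the median of all genes, Ephb3 rose by 2.47, 2.63 and 2.31 with the 3 ligands, Ephb2 by 0.90, 1.06 and 1.42, and Efnb2 changed by −1.63, −1.46 and −0.95. Under TMM no called member turned its direction. Ephb4 no longer passed with Rspo1 (0.19, limma adjusted p = 0.292, against 0.53 and 0.00425 before), and Epha1 passed with Rspo2 (−0.55, limma adjusted p = 0.00986).

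Genes around the members are set here against all genes, of which 53.4%, 33.4% and 51.4% passed between doses of Rspo1, Rspo2 and Rspo3 in WTs. Of 7 other Eph family genes tested, 3 rose with each ligand in WT: Epha4 (1.66), Efna3 (0.65) and Efna2 (0.58) with Rspo1, Epha4 (2.02), Efna3 (1.38) and Epha5 (0.88) with Rspo2, and Epha4 (1.12), Efna2 (0.95) and Efna3 (0.49) with Rspo3. Efna2 and Efna3 are A-type ligands. Efna3 passed as higher with each Rspondin, as Efna4 did, and Efna2 with Rspo1 and Rspo3, whereas Efna1 went the other way. Of 21 downstream genes tested, 11 rose and 1 fell with Rspo1, 5 rose and 1 fell with Rspo2, and 9 rose and 4 fell with Rspo3. Tiam1, an exchange factor for Rac, rose with each ligand (1.75, 0.96 and 2.18), and the kinase Fyn with Rspo1 (1.74) and Rspo3 (1.98). The Wnt target list rose in 12, 14 and 10 of 14 tested genes with Rspo1, Rspo2 and Rspo3, with medians of 1.83, 2.19 and 1.97 against 0.28, 0.17 and 0.24 for all genes. Stem cell markers rose in 7 of 7 genes with each ligand and Paneth markers in 7, 8 and 6 of 8, whereas enterocyte markers fell in 6 of 7 with each. In WT5, WT10 and WT30, stem markers (led by Slc12a2) summed to 531, 494 and 493 CPM at 5 ng/ml and 3220, 2655 and 2814 CPM at 100 ng/ml of Rspo1. Paneth markers (led by Lyz1) summed to 173, 413 and 275 CPM at 5 ng/ml and 834, 1546 and 1155 CPM at 100 ng/ml, with Pla2g2a at 0 in all 3 cultures at the low dose, Defa22 in WT5 and WT10 and Mmp7 in WT30, and enterocyte markers (led by Alpi or Sis) to 6667, 7057 and 7086 CPM at 5 ng/ml and 2605, 2620 and 2647 CPM at 100 ng/ml. With Rspo2 and Rspo3 at 100 ng/ml the stem sums were 3621, 4438 and 5533 CPM and 1773, 1599 and 1381 CPM. Goblet markers (led by Fcgbp) summed to 4044, 9006 and 7191 CPM at 5 ng/ml and 2710, 4822 and 4805 CPM at 100 ng/ml of Rspo1. With Rspo2 they went from 4664, 6498 and 7643 to 2506, 3540 and 3166 CPM. With Rspo3 they went from 4375, 7054 and 8494 to 3963, 5130 and 7046 CPM. How much of the change in the members follows the share of these cells was not tested.

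KO organoids moved the members with Rspo1 and Rspo3 in the directions seen in WTs. Ephb3 was at 33.0 and 14.3 CPM in KO2 and KO7 at 5 ng/ml of Rspo1 and 160.3 and 94.3 CPM at 100 ng/ml, and at 7.45 and 11.8 and 104 and 81.7 CPM with Rspo3. Efnb2 was at 360.4 and 413 and 157 and 139 CPM with Rspo1 and at 475 and 428 and 194 and 214 CPM with Rspo3. In both genes the doses did not overlap with these ligands, nor did 62.6% of all genes with Rspo1 and 73.2% with Rspo3. By limma 7 of 9 members passed with Rspo1 (4 higher, 3 lower; 29.8% of all genes) and 9 of 9 with Rspo3 (5 higher, 4 lower; 44.5%). The log2 fold change of Ephb3 was 2.44 with Rspo1 and 3.17 with Rspo3 (limma adjusted p = 0.00016 and 1.15e-06), and that of Efnb2 −1.38 and −1.14 (limma adjusted p = 0.000359 and 0.000586). Without KO7, 1 member passed with Rspo1, Ephb3 (2.45% of all genes). TMM moved the median of all genes by −0.19 with Rspo1 and −0.22 with Rspo3 and the share of called genes that were higher from 73.6% to 46.9% and from 73.6% to 52.9%. Under TMM Epha1 passed with Rspo1 (−0.63) and Ephb4 no longer passed with Rspo3 (0.35, limma adjusted p = 0.115), and with the culture as a block Ephb4 passed with Rspo1 (0.37, limma adjusted p = 0.0188; 43.8% of all genes). The test of the difference between KO and WT dose effects called 0 of 9 members with Rspo1 and 0 with Rspo3 by limma (0% of all genes in both; unadjusted p below 0.05 in 0 and 0 members and in 516 and 430 genes), the interval of that difference for Ephb3 being −1.35 to 0.72 and −0.42 to 1.65. Of 7 other family genes, 4 rose with Rspo1 and 3 with Rspo3 in KOs, and Epha4 had the largest change of them in both (2.75 and 2.25). Of 21 downstream genes, 6 rose with Rspo1, and 7 rose and 3 fell with Rspo3, while 12 and 10 of 14 Wnt targets rose. Stem cell markers, led by Slc12a2, rose in 7 of 7 genes with both. Their sums in KO2 and KO7 were 990.2 and 487 CPM at 5 ng/ml and 3436 and 2862 CPM at 100 ng/ml of Rspo1, and 196 and 167 and then 2298 and 1959 CPM with Rspo3. Paneth markers rose in 8 of 8 genes with Rspo1 (sums of 398 and 169.9 CPM at 5 ng/ml and 921 and 942 CPM at 100 ng/ml) and in 7 with Rspo3 (264 and 144, then 765 and 771 CPM). Lyz1, Itln1 or Defa24 was the most abundant of them, and at 5 ng/ml Pla2g2a was at 0 in both cultures with Rspo1 and, like Mmp7, in KO7 with Rspo3. Enterocyte markers, led by Alpi or Sis, fell in 4 of 7 genes with Rspo1 (6016 and 6614 CPM at 5 ng/ml and 3319 and 3797 CPM at 100 ng/ml) and in 6 with Rspo3 (9240 and 10089, then 3845 and 6094 CPM). Goblet markers, led by Fcgbp, went from 5601 and 6713 to 3109 and 3705 CPM with Rspo1 in KO2 and KO7. With Rspo3 they went from 7891 and 8995 to 3768 and 5923 CPM. The part of these cells in the values of the members was not tested.

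With Rspo2, in contrast, no member passed between doses in KOs, and KO2 at 5 ng/ml held Ephb2 and Ephb3 as high as at 100 ng/ml. Ephb2 was at 234 and 185 CPM in KO2 and KO7 at 5 ng/ml and 217 and 294 CPM at 100 ng/ml. Ephb3 was at 151 and 55 and 148 and 137 CPM and Efnb2 at 137 and 191 and 187 and 109 CPM. At 5 ng/ml KO2 lay among the values of the high dose for these 3 genes, whereas KO7 lay between the WT values of both doses for Ephb3. The dose effect within KOs called 0 of 9 members by limma (0.115% of all genes, 22 genes; 1 member, Efna4, and 1327 genes had an unadjusted p below 0.05), with log2 fold changes of 0.64 for Ephb3 (95% interval −0.16 to 1.44), 0.28 for Ephb2 (−0.25 to 0.81) and −0.18 for Efnb2 (−0.68 to 0.32). Of the other lists, 0 of 7 family genes, 0 of 21 downstream genes and 1 of 14 Wnt targets passed by limma.

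Set against WTs at 5 ng/ml of Rspo2, KOs had more Ephb3 and Ephb2 and less Efnb2. The WT values of Ephb3 were 32.8, 23 and 16.1 CPM and those of KOs 151 and 55 CPM, giving 24.0 ± 8.39 and 103 ± 67.8 CPM (SD, n = 3 and 2). For Ephb2 the means were 105 ± 35.0 and 209.5 ± 34.0 CPM and for Efnb2 378 ± 17 and 164 ± 38.2 CPM (SD, n = 3 and 2). Genotypes did not overlap in any of these 3 genes, nor in 38.5% of all genes. By limma, 3 of 9 members passed (2 higher, 1 lower), against 4.54% of all genes, with log2 fold changes of 1.94 for Ephb3 (adjusted p = 0.00378), 1.04 for Ephb2 (adjusted p = 0.014) and −1.22 for Efnb2 (adjusted p = 0.00381). Efna4, at 11.5, 8.85 and 7 CPM in WTs and 29.2 and 10.6 CPM in KO2 and KO7, overlapped between genotypes (0.91, limma adjusted p = 0.0853). TMM changed the share of called genes that were higher in KOs from 70.0% to 54.4% and kept the calls of these 3 members. Without the whole KO2 culture, Ephb3 (1.22, limma adjusted p = 0.0277) and Efnb2 (−0.98, 0.0469) still passed and Ephb2 (0.88, 0.163) did not (3.94% of all genes passed), and without the KO7 culture all 3 passed and Efna4 was added (7.20%). In an analysis chosen after seeing the data, which left out single libraries at this dose, 0 members passed without that of KO2 (Ephb3 1.22, limma adjusted p = 0.140; Ephb2 0.88, 0.179; Efnb2 −0.98, 0.105), and 4 passed without that of KO7, Efna4 being added. Without culture WT10 or WT30, Ephb3 (1.94 and 1.70; limma adjusted p = 0.0527 and 0.0778) and Ephb2 (1.14 and 0.74; 0.0573 and 0.0992) no longer passed (1.18% and 0.638% of all genes did).

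The difference in dose effect itself was largest for Ephb3 with Rspo2. It was −2.17 on the log2 scale for Ephb3 (KO minus WT; 95% interval −3.20 to −1.13; limma adjusted p = 0.0537), −1.34 for Efna4 (limma adjusted p = 0.187), 1.11 for Efnb2 (limma adjusted p = 0.12) and −0.95 for Ephb2 (limma adjusted p = 0.214). By limma 0 of 9 members passed this test, against 0.439% of all genes, while 5 members and 2438 genes had an unadjusted p below 0.05. With the culture as a block, 4 passed: Ephb3 (limma adjusted p = 0.0106), Efnb2 (0.0308), Efna4 (0.0335) and Ephb2 (0.0404), against 3.97% of all genes. Without the whole KO7 culture, Ephb3 (−2.83, limma adjusted p = 0.00884), Efna4 (−2.08, 0.0187) and Efnb2 (1.74, 0.0244) passed, against 2.40% of all genes, and without KO2 0 members did (0.0354%). Without WT5, Ephb3 (−2.60) and Efnb2 (1.40) passed (limma adjusted p = 0.0431 for both; 0.757% of all genes), and without WT10 or WT30 0 members did, Ephb3 being at −2.13 (0.399) and −1.76 (0.657). With only the library at 5 ng/ml left out, chosen after seeing the data, Ephb3 and Efna4 passed without that of KO7 (−2.89 and −2.03; limma adjusted p = 0.00524 and 0.0126) and 0 members without that of KO2. TMM moved the median of all genes by 0.13 in this test and left Ephb3 at −2.01 and Efnb2 at 1.27. Among 14 Wnt targets 6 passed (0.439% of all genes did), each with a lower dose effect in KOs, and of 21 downstream genes Ngef alone did. At 5 ng/ml of Rspo2 9 of 14 Wnt targets and 5 of 7 stem cell markers were higher in KOs, as were Epha4 (1.76) and Efna3 (0.83) of the other family genes, where 4.54% of all genes passed. Of 8 Paneth markers 4 were higher in KOs, with sums of 431, 441 and 376 CPM in WT5, WT10 and WT30, where Lyz1 was the most abundant and Pla2g2a was at 0 in WT10 and WT30, and of 1050 and 1045 CPM in KO2 and KO7, where Itln1 was. Stem markers, led by Slc12a2, summed at this dose to 1243, 842 and 508 CPM in WT5, WT10 and WT30 and 3429 and 1711 CPM in KO2 and KO7. Ephb3 is also made by Paneth cells, and the part of Paneth and stem cells in the Ephb3 and Ephb2 values was not tested.

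At the other ligands and doses no member passed between the genotypes with all cultures in the fit. KO against WT called 0 of 9 members by limma with Rspo1 at 100 ng/ml (0.214% of all genes), Rspo1 at 5 ng/ml (0.125%), Rspo2 at 100 ng/ml (1.20%), Rspo3 at 100 ng/ml (0.868%) and Rspo3 at 5 ng/ml (0.193%). At an unadjusted p below 0.05 these tests gave 0, 2, 0, 3 and 0 members and 1688, 1599, 2346, 2046 and 1033 genes. With Rspo3 at 100 ng/ml, 5 members did not overlap between genotypes, namely Ephb2, Ephb3, Epha2, Efnb1 and Efnb2. Ephb3 was there at 50.5, 44.4 and 40.6 CPM in WTs and 104 and 81.7 CPM in KOs, and Efnb2 at 328, 303 and 297 and 194 and 214 CPM. Neither gene overlapped between genotypes, as 29.1% of all genes did not, with log2 fold changes of 1.02 (0.29 to 1.75; limma adjusted p = 0.226) and −0.60 (−1.05 to −0.14; limma adjusted p = 0.276). Epha2 differed between KO7 and KO2, with 199 CPM at 100 ng/ml of Rspo1 against 87.8 in KO2, 172 against 66.7 at 5 ng/ml of Rspo2, and 234 against 94.5 at 100 ng/ml of Rspo3. It was also higher in KO7 at 100 ng/ml of Rspo2 (171 against 108) and 5 ng/ml of Rspo3 (76.5 against 34.0), and lower at 5 ng/ml of Rspo1 (33.9 against 40.5). With KO2 left out, Epha2 passed as higher in KOs with Rspo3 at 100 ng/ml (1.56, limma adjusted p = 0.00661) and with Rspo2 at 5 ng/ml (1.41, limma adjusted p = 0.0153), so these calls rest on KO7. X-linked Efnb1 did not pass between the female WT and male KO cultures. It was at 98.8 ± 15.5 and 98.8 ± 8.2 CPM with Rspo1 at 100 ng/ml (SD, n = 3 and 2; interval of the log2 fold change −0.29 to 0.31). With Rspo2 at 5 ng/ml, KO2 and KO7 (105 and 123 CPM) lay below the WTs (128 to 133 CPM). The same was seen with Rspo3 at 100 ng/ml (116 and 111 against 118 to 123 CPM). Of all genes, 38.5% and 29.1% did not overlap in these 2 comparisons.

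The 3 ligands were also compared at the same dose in WTs. At 5 ng/ml Rspo3 gave the lowest Ephb2, Ephb3 and Ephb4 and the highest Epha1. Ephb2 was at 56.6, 42.2 and 37.1 CPM with Rspo3 and 98.0, 73.2 and 83.2 CPM with Rspo1, Ephb4 at 161, 132 and 124 and 221, 212 and 213 CPM, and Epha1 at 163, 192 and 179.8 and 109, 123 and 105 CPM. None of these 3 overlapped between ligands, nor did 34.1% of all genes. Against Rspo1, limma called 4 of 9 members with Rspo3 (1 higher, 3 lower; 16.4% of all genes): Epha1 (0.66, adjusted p = 0.00343), Ephb2 (−0.90, 0.00508), Ephb4 (−0.63, 0.00518) and Efna4 (−0.95, 0.0217). With the culture as a block Ephb3 and Epha2 passed too (limma adjusted p = 0.0204 and 0.00377; 29.1% of all genes), and without WT10 0 members did (3.03%). Rspo2 against Rspo1 at 5 ng/ml called 1 member, Efna1, of 9 (22.8% of all genes). Efna1 was at 52.2, 57 and 54.2 CPM with Rspo2 and 88.8, 113 and 82.8 CPM with Rspo1 and did not overlap, as 38% of all genes did not (−0.78, limma adjusted p = 0.00099). With the culture as a block 3 members passed, Epha2 and Ephb3 being added (limma adjusted p = 0.00165 and 0.0466; 35.9% of all genes). Stem markers (led by Slc12a2) summed at this dose to 209, 118 and 143 CPM with Rspo3, 531, 494 and 493 CPM with Rspo1 and 1243, 842 and 508 CPM with Rspo2, 6 of 7 passing as lower with Rspo3 and 6 as higher with Rspo2 than with Rspo1. Enterocyte markers (led by Sis, Alpi or Apoa4) summed to 9490, 9618 and 10111 CPM with Rspo3, 6667, 7057 and 7086 CPM with Rspo1 and 4296, 6034 and 8609 CPM with Rspo2, 0 of 7 passing with Rspo3 and 5 as lower with Rspo2. Of 8 Paneth markers (led by Lyz1), 4 were lower with Rspo3, which had sums of 100.1, 118 and 162 CPM and Defa22, Mmp7 and Pla2g2a at 0 in all 3 cultures. The part of these cells was not tested. Scaling matters here, since TMM changed the share of called genes that were higher from 72.1% to 52.5% for Rspo2 and from 22.5% to 37.6% for Rspo3.

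At 100 ng/ml limma called 0 of 9 members for Rspo2 against Rspo1 (0.204% of all genes; unadjusted p below 0.05 in 2 members and 1241 genes) and 0 for Rspo3 against Rspo1 (0.00523%, a lone gene; 6 members and 4271 genes). Even so, Ephb3 was at 127, 174 and 208 CPM with Rspo2, 112, 92.2 and 87.4 CPM with Rspo1 and 50.5, 44.4 and 40.6 CPM with Rspo3. The ligands did not overlap, in the order Rspo2, Rspo1, Rspo3, where 10.4% of all genes did not overlap between Rspo2 and Rspo1 and 28.2% between Rspo3 and Rspo1. Efnb2 was at 328, 303 and 297 CPM with Rspo3 against 218, 177 and 166 CPM with Rspo1, again with no overlap (0.73, limma adjusted p = 0.0717). With the culture as a block, 4 members passed for Rspo3 against Rspo1, Ephb3 (−1.09, limma adjusted p = 0.0186), Efna4 (0.0152), Ephb4 (0.0262) and Efnb2 (0.015), against 15.2% of all genes. In this comparison, enterocyte markers summed to 4073, 5798 and 7088 against 2605, 2620 and 2647 CPM in WT5, WT10 and WT30. Paneth markers summed to 505, 548 and 719 against 834, 1546 and 1155 CPM. Stem markers summed to 1773, 1599 and 1381 against 3220, 2655 and 2814 CPM. The part of these cells in the values of the members was not tested. TMM moved the median of all genes by 0.15 in that comparison, raised the calls from 1 to 218 genes, of which 86.2% were higher with Rspo3 against 0% before, and called Efnb2 (0.91, limma adjusted p = 0.0478). At 5 ng/ml, 6 of 14 Wnt targets were higher with Rspo2 than with Rspo1 and 5 were lower with Rspo3, against 22.8% and 16.4% of all genes in either direction. Of the other Eph family genes, 1 of 7 passed with Rspo2, Efna2 (0.53), and of 21 downstream genes 5 rose with Rspo2 and 3 rose and 1 fell with Rspo3.

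**Figure D3:**
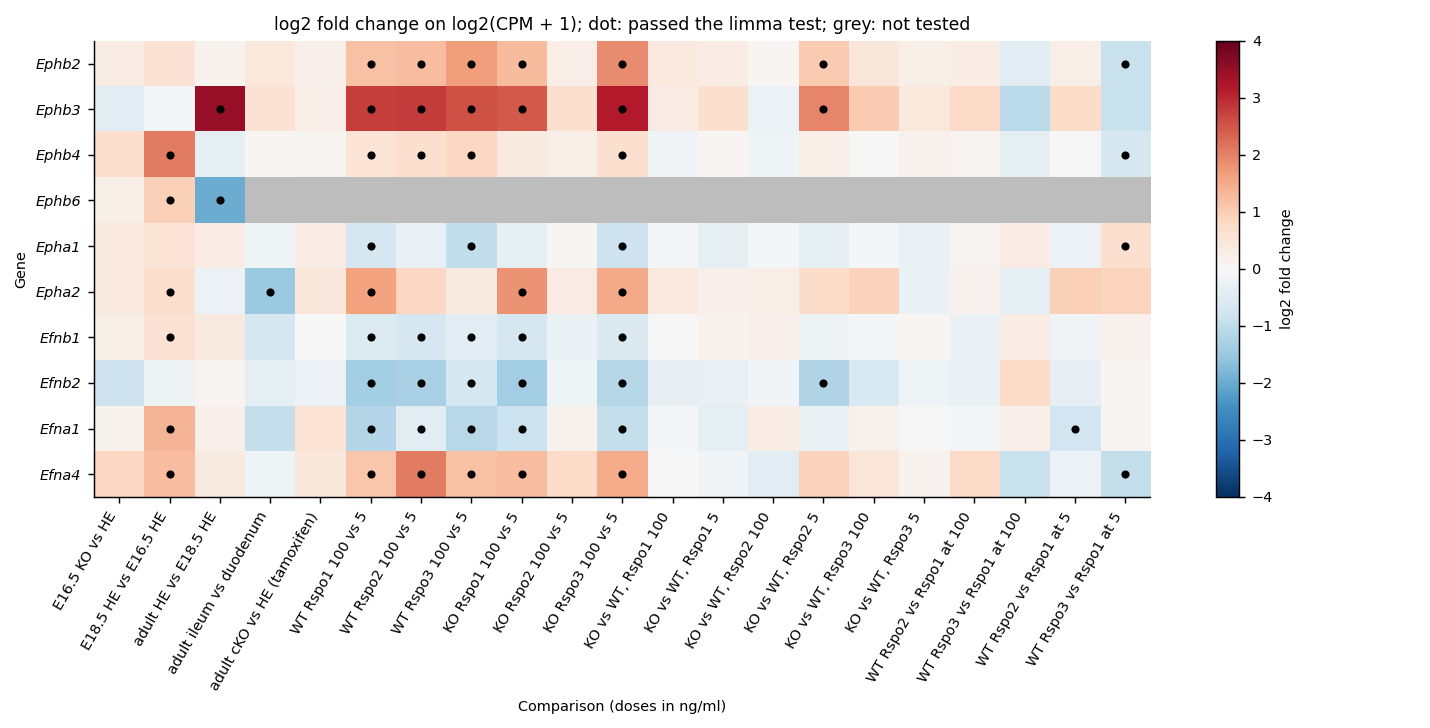
log2 fold change (colour, on log2(CPM + 1)) of the 10 genes (rows) in the comparisons of sorted cells and organoids (columns); black dots mark genes that passed the limma test, and grey marks Ephb6 where it was not tested. Ephb3 shows the deepest red, 3.47 from E18.5 to adult and 2.44 to 3.17 for dose with Rspo1 and Rspo3 in KOs, and the KO Rspo2 dose column is pale.

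The receptors and ligands of the B class were set against each other as a ratio of levels per kb of exon, Ephb2 and Ephb3 summed over Efnb1 and Efnb2 summed. In sorted cells the ratio was 0.893 ± 0.132 in E16.5 HEs, 1.13 ± 0.0835 in E16.5 KOs and 1.01 ± 0.0793 in E18.5 HEs (SD, n = 2 in each). It was 1.57 ± 0.458 in adult duodenum and 3.33 ± 0.229 in adult ileum (SD, n = 2 in each). The fetal means lay near 1, whereas both ileal libraries of the Lgr5-DTReGFP mice had over 3 times as much receptor as ligand RNA by this measure. Ileal cells of the Cre mice were nearer to the fetal ones, at 1.2 ± 0.622 in libraries labelled HE (SD, n = 2) and 1.38 ± 0.181 in those labelled cKO (SD, n = 3). In WT organoids the ratio was 0.0792 ± 0.00971 at 5 and 0.537 ± 0.0511 at 100 ng/ml of Rspo1, 0.128 ± 0.0447 and 0.993 ± 0.333 with Rspo2 and 0.0383 ± 0.00447 and 0.23 ± 0.0343 with Rspo3 (SD, n = 3 in each). In KOs it was 0.117 ± 0.0389 and 0.775 ± 0.0506 with Rspo1, 0.59 ± 0.322 and 0.891 ± 0.31 with Rspo2 and 0.049 ± 0.00783 and 0.473 ± 0.043 with Rspo3 (SD, n = 2 in each). At 5 ng/ml of Rspo2, KO7 (0.362) and KO2 (0.817) were both above the WT range at 5 ng/ml, 0.0335 to 0.169 over all 3 ligands. No test was made on this ratio, and sorted cells and organoids were counted in separate tables from different library kits, so levels are not compared between them.

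**Figure D4:**
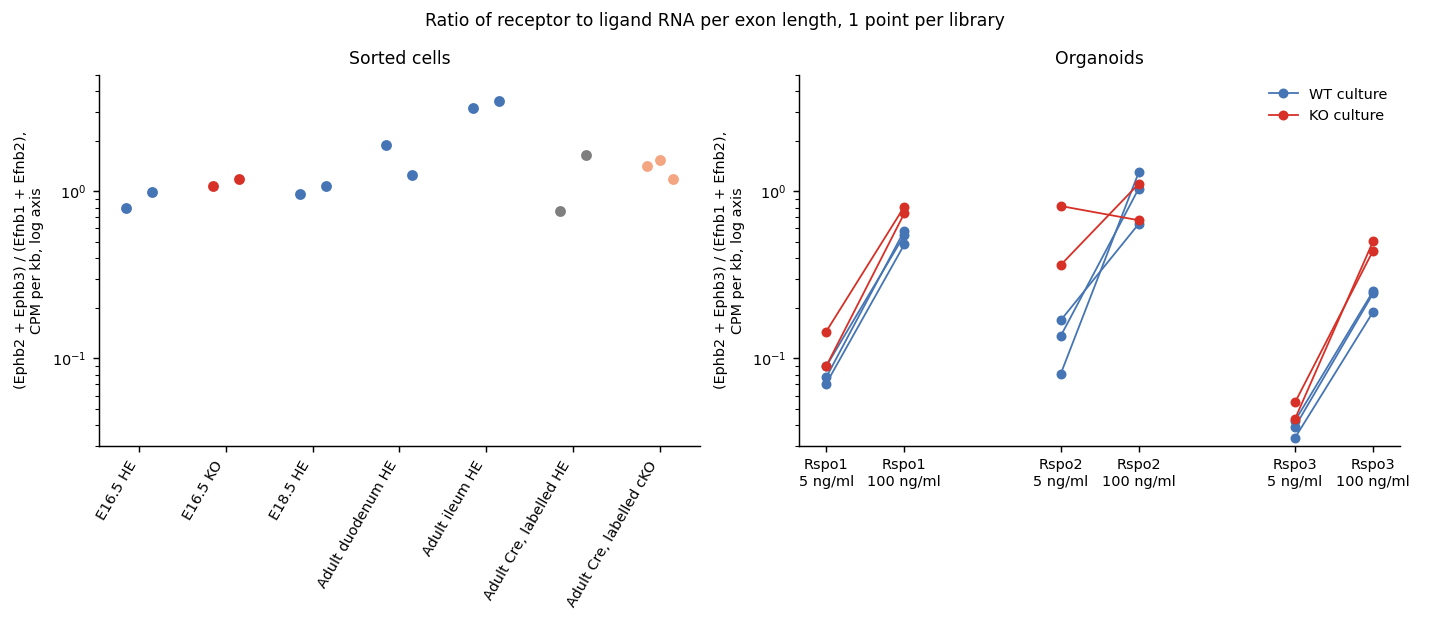
Ratio of Ephb2 plus Ephb3 to Efnb1 plus Efnb2, each in CPM per kb of exon (y axis, log scale), in sorted libraries (left, by group) and in organoids (right, by ligand and dose); points are libraries and lines join both doses of a culture. WT organoids at 5 ng/ml lie between 0.0335 and 0.169 and those at 100 ng/ml between 0.190 and 1.30.

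The first place in the order of the members per kb turned with dose in most organoid groups. At 100 ng/ml Ephb4 was first in all 6 groups of genotype and ligand, for example at 73.2 ± 3.40 CPM per kb (SD, n = 3) in WTs with Rspo2. With Rspo3 at that dose, its libraries overlapped those of the next gene, Efnb2 in WTs and Epha2 in KOs. At 5 ng/ml Efnb2 was first in all 3 WT groups and in KOs with Rspo1 and Rspo3, with 73.7 ± 6.80 CPM per kb (SD, n = 3) in WTs with Rspo3. KOs at 5 ng/ml of Rspo2 were the exception, with Ephb4 first at 56.3 ± 12.6 CPM per kb (SD, n = 2) and Efnb2 at place 4 with 24.0 ± 5.58 (SD, n = 2). Ephb4 and Efnb2 overlapped at 5 ng/ml in WTs with Rspo2 but did not with Rspo3, where Efna1 (56.1 ± 2.65, SD, n = 3) took place 2. Ephb3 held place 9 at 5 ng/ml in all 3 WT groups, at 1.03 ± 0.129 CPM per kb (SD, n = 3) with Rspo3, and place 3 at 100 ng/ml of Rspo2 (25.6 ± 6.10, SD, n = 3). At 100 ng/ml of Rspo1 (14.7 ± 2.00, SD, n = 3) and Rspo3 (6.80 ± 0.756, SD, n = 3) it stayed at place 9, although its own level was higher.

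Over the 30 organoid libraries, which share 5 cultures and 3 ligands at 2 doses, the members formed opposing sets. Ephb2 and Ephb3 rose and fell together (Pearson r = 0.955 on log2(CPM + 1); 0.948 in the 18 WT and 0.959 in the 12 KO libraries), and Ephb3 ran against Efnb2 (r = −0.940) and with Lgr5 (r = 0.950). Efnb1 and Efnb2 went together (r = 0.891). Among 10635 genes with a mean of at least 10 CPM, the patterns most like that of Ephb2 were those of Myc (r = 0.982, rho = 0.956), Tmem132a (0.982, 0.984) and Trp53 (0.979, 0.973), and those most like Ephb3 were Iqsec1 (0.985, 0.976), Gm11670 (0.985, 0.967) and Srgap2 (0.981, 0.963). Cnep1r1 (0.955, 0.967) and Myo1c (0.954, 0.942) were among the genes most like Epha2. For the ligands, Efnb1 was nearest to Coro2a (0.972, 0.960), Rbm47 (0.970, 0.969) and Gm16731 (0.969, 0.970), Efnb2 to Gucd1 (0.978, 0.968), Zzef1 (0.975, 0.958) and Fam83f (0.974, 0.964), and Efna1 to Gm28040 (0.962, 0.927), Pdcd6 (0.960, 0.940) and Golt1a (0.960, 0.916). These coefficients describe the libraries only, since culture, ligand and dose are shared by many points.

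These results rest on 2 or 3 libraries per group, on pools at E16.5 and on 2 mice behind 4 adult libraries. Fetal stage and pooling, and genotype and sex in organoids, cannot be told apart, nor can labelled genotype and sex in adult Cre libraries. The genotypes of 2 of these Cre libraries differ between sources. RNA was read from whole sorted fractions or organoids, so the cell in which each Eph receptor or ephrin is made, its protein and its contact with a neighbour were not measured. At the low Rspo2 dose, the calls between KO and WT organoids change with the KO or WT culture that is left out.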

How the data were processed

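Sorted cells (15 libraries, Ovation SoLo kit) and organoids (30 libraries, NEBNext kit) were read as paired ends. According to the series record, the authors trimmed reads with Trimmomatic 0.36, aligned them to GRCm38 with STAR 2.5.3a, counted them per Ensembl gene with HTSeq 0.9.1 and analysed them with edgeR. The deposited values are CPM, which the authors made from these counts, in steps of 0.05. No column was left out, and each table was tested on its own. The members were taken by gene name. They and the lists were chosen with earlier results of these data known, and the text names members, the genes that passed on each list, and up to 3 of the genes most like a member.

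Fits used limma 3.58.1 in R 4.3.3 on log2(CPM + 1) with a trended prior. Genes needed 1 CPM or more in at least the number of libraries that the smallest group holds, and p was adjusted by the Benjamini-Hochberg method over all genes tested. Each sorted comparison had its own fit, and the organoids 1 fit of 30 libraries. A gene passed at an adjusted p below 0.1 and over 1.5-fold in sorted cells, or below 0.05 in organoids. Intervals are 95% intervals. Whole reads were recovered from the CPM steps of the sorted libraries, where 100% of low values came out whole, and tested with the quasi-likelihood method of edgeR 4.0.16. That test called 253 genes between E16.5 KOs and HEs, 9139 between E18.5 and E16.5, 3736 between adult and E18.5, 1312 between ileum and duodenum, and 10 between labelled cKO and HE. The scripts were tested on simulated data. TMM scaling, another pseudocount, no filter, replicate blocks and left-out libraries or cultures were tried as alternatives. Genome positions and exon lengths came from GENCODE vM21, which held 52403 of the 52636 gene identifiers, and exon lengths are unions over transcripts. Tables and figures used Python 3.11.15, numpy 2.4.6, pandas 2.3.3, scipy 1.17.1 and matplotlib 3.10.9.

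Organoid libraries of a culture share an embryo, adult regions share a mouse, and E16.5 pools share a litter by their labels. Deviations from group means correlated at a mean r of 0.489 within WT cultures (0.124 to 0.883, 45 pairs) and 0.52 within KO cultures (0.128 to 0.832, 30 pairs), at 0.321 between regions of a mouse and at 0.0309 between E16.5 pools of a litter.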

Additional observations from a re-analysis of the deposited data

Results flagged for a closer look

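Ephb6 stood at 0.25 CPM in the duodenum of adult mouse 77, which is 1 read, while the other 3 adult libraries were at 0. A Dixon test marked this sample, the only one in 10 groups, but with the others at 0 it would mark any value above 0, so the mark says nothing about this library.

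The effect of the Rspo2 dose differed between KO and WT organoids, by a limma test of the difference itself, for 6 Wnt targets and 1 downstream gene. Of all genes, 0.439% passed this test. Genotype and sex cannot be told apart in these cultures, and these genes were not followed with cultures left out. On the log2 scale the difference (KO minus WT) was −3.51 for Lgr5, −3.21 for Sp5, −2.97 for Ascl2, −1.84 for Rnf43, −1.80 for Tcf7 and −1.71 for Sox9, and −0.74 for Ngef, an exchange factor that binds Epha4. Lgr5 RNA in KOs comes from the disrupted locus, so its value describes that allele. Between 5 and 100 ng/ml, Lgr5 went from 20.55 to 104.45 CPM in KO7 and from 90.45 to 75 CPM in KO2. It went from 28.7 to 247 CPM in WT5, from 15.9 to 379 CPM in WT10 and from 6.1 to 457.5 CPM in WT30. For Lgr5, only KO2 thus lacked a rise. What underlies these differences was not tested.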

How the results depend on the processing

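The log2 fold changes of the members were compared with those under every alternative, 2131 values in all. Of these 1930 kept their direction and their side of the threshold, 56 lost the call, 58 gained it, 87 turned direction without passing before or after, and 0 turned direction with a call. Of 233 counts of members called, 202 stayed within 1.5 times of the reported count. For those that did not, the cause was not tested. Counts between E18.5 and E16.5 and between adult and E18.5 include Ephb6 where it passed, which met the minimum of 1 CPM only through the E18.5 embryos.

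With a replicate block, the count was 2 between E16.5 KOs and HEs, 3 between ileum and duodenum, 4 for the KO and WT difference in Rspo2 dose effect, 4 for Rspo3 against Rspo1 at 100 ng/ml and 3 for Rspo2 against Rspo1 at 5 ng/ml. Besides the calls of Epha2, Ephb3, Ephb4 and others given in the report, the block changed no other call. E16.5 and E18.5 libraries, and adult Cre libraries, share only a number (r = −0.0306, and 0.239 to 0.486), and a block on it left the counts at 6 and 0. With 1 fit of all 15 sorted libraries, 1 member, Ephb4, passed between E16.5 KOs and HEs. Between E18.5 and E16.5 that fit gave 5, Epha2 losing its call (limma adjusted p = 0.194). Adult duodenum alone against E18.5 gave 4 and adult ileum alone 3. Without a filter, ileum against duodenum gave 0 and KO against WT with Rspo2 at 100 ng/ml gave 1. No member tested with the filter gained a call in the latter. Ephb6 enters the organoid fit only without the filter, and was there at 0.1 to 0.15 CPM in WTs and 0.3 and 0.5 CPM in KOs, near the floor. The genotypes of the supplement gave 1 between cKO and HE, and TMM scaling gave 1 for Rspo3 against Rspo1 at 100 ng/ml.

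Leaving out a library of sorted cells in turn gave 0 to 7 members between E18.5 and E16.5, 0 to 2 between ileum and duodenum, 2 between adult and E18.5, and 0 in the E16.5 and Cre comparisons. Leaving out an organoid culture, or either KO library at 5 ng/ml of Rspo2 (chosen after seeing the data), gave 9 members for the WT dose of Rspo1, 5 to 8 for Rspo2 and 7 to 8 for Rspo3. For the KO dose it gave 1 to 7, 0 and 6 to 9 with Rspo1, Rspo2 and Rspo3, and for the difference in dose effect 0 to 3 with Rspo2 and 0 with the others. KO against WT gave 0 to 4 with Rspo2 at 5 ng/ml, 0 to 1 with Rspo3 at 100 ng/ml and 0 elsewhere. Against Rspo1, Rspo3 gave 0 to 2 at 100 ng/ml and 0 to 6 at 5 ng/ml, and Rspo2 gave 0 and 1 to 3. Where a group was left with 1 library, it was assumed to vary like the others. At the shallowest depth 1 read is 0.784 CPM, which limits Ephb6 and Efna4 at E16.5.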
